A study of Homo sapiens with 6 samples.

Results

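The nuclear genes for the 5 complexes of oxidative phosphorylation were examined in HepaRG cells, a human hepatic line that differentiates in culture into hepatocyte-like and biliary-like cells. Members were all protein-coding genes whose symbol begins with NDUFA, NDUFB, NDUFC, NDUFS or NDUFV, with UQCR, with COX4 to COX8 or with ATP5, or is SDHA, SDHB, SDHC or SDHD, leaving out the NDUFAF assembly factors. That gave 90 of 58037 gene rows, of which 40 belong to complex I, 4 to complex II, 9 to complex III, 17 to complex IV and 20 to complex V. All groups were differentiated HepaRG cells of passages 15 to 18, grown for 14 days, differentiated for 14 days and held in basal medium with insulin and hydrocortisone for 5 days. The 3 control samples then received 0.02% bovine serum albumin for 72 h, and the 3 fatty acid samples received palmitate and oleate at 1 part to 2 parts, 0.5 mM, on the same percentage of albumin and for the same time. The series title presents the loaded cells as a model of steatosis. The cells are a tumour-derived line of mixed cell types, and no label says whether replicates were grown apart. The p-values therefore cover the scatter of these 3 samples per group, part or all of which may be technical.

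The respiratory chain carries electrons from NADH (complex I) and succinate (complex II) through ubiquinone, complex III and cytochrome c to oxygen at complex IV, and complex V uses the proton gradient so built to make ATP. Complexes I, III, IV and V are mosaics: a few core subunits are encoded by mitochondrial DNA and the rest by nuclear genes, whereas complex II is wholly nuclear. In liver the chain takes up the electrons released when fatty acids are oxidised. Several complex IV subunits exist as pairs of isoforms, and COX6A2 is the heart and skeletal muscle isoform of subunit VIa while COX6A1 is the isoform of liver and most other tissues.

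Most subunit genes differed little between the groups, and COX6A2 differed most. Of the 79 members with a mean of at least 0.5 FPKM (fragments per kilobase of gene, scaled to each library's assigned reads), 0 were higher and 3 were lower in the fatty acid group at a limma adjusted p under 0.05, Benjamini-Hochberg over all genes. The 3 were COX6A2 of complex IV, UQCR10 of complex III and NDUFA11 of complex I. That is 3.8% of the tested members, where 12.9% of all 14661 genes tested were called (8.22% higher and 4.68% lower). The 95% interval of the change lay within 1.5-fold in either direction for 72 of 79 members, or 91.1%, against 72.6% of all genes. The median log2 fold change, fatty acid minus control on log2(FPKM + 0.5), was -0.07 for the members and 0.04 for all genes. The control and fatty acid libraries did not overlap for 36.7% of the tested members, against 37.1% of all genes. Of all genes, 13.3% were lower and 23.7% higher in this way. The 11 untested members comprised NDUFA4L2, NDUFA7, NDUFV2, COX7B2, COX8C, ATP5J2-PTCD1 and ATP5L2, which were below the minimum, and COX4I2, COX6B2, COX7A1 and NDUFC2-KCTD14, which had no reads in any library.

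The gene starts of COX6A2, UQCR10 and NDUFA11 are shown because these are the 3 called members, and that of COX6A1 because it is the ubiquitous partner of COX6A2. Each run is 250 bases before to 50 bases after the RefSeq start (GRCh38.p14), written 5′ to 3′ on the gene's strand, and capitals mark matches to the searched motifs.
COX6A1, chr12:120437863-120438162, plus strand: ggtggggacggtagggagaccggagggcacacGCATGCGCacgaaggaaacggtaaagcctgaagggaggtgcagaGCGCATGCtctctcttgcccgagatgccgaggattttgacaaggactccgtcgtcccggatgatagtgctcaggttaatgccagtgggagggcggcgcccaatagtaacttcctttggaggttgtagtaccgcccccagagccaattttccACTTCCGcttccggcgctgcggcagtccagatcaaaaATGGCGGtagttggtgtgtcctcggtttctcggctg
COX6A2, chr16:31428311-31428610, minus strand: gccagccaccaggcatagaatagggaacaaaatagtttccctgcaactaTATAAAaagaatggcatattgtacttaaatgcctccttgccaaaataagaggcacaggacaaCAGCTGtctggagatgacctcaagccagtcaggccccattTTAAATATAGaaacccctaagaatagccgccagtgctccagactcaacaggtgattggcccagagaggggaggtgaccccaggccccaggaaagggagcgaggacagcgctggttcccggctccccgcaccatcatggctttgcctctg
UQCR10, chr22:29767119-29767418, plus strand: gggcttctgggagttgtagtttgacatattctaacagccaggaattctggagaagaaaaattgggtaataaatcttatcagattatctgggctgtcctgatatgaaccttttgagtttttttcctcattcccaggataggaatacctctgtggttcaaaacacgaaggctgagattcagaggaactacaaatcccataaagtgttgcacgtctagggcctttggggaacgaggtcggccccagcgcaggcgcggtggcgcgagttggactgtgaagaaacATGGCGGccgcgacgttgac
NDUFA11, chr19:5903741-5904040, minus strand: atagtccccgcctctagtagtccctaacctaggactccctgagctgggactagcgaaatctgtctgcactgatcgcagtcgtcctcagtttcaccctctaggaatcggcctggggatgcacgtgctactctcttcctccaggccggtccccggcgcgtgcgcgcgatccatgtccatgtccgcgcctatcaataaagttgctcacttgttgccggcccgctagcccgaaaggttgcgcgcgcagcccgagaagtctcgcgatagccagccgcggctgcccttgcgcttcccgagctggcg
In COX6A1 the capitals are an NRF1 motif (GCATGCGC) and its reverse complement, an ETS motif (ACTTCCG) and a YY1 motif (ATGGCGG). In COX6A2 they are TATAAA, an E-box (CAGCTG) and a match to the MEF2 consensus, and in UQCR10 a YY1 motif, while the NDUFA11 window holds none of the letters searched. NRF1, ETS factors of the GABP type and YY1 are known regulators of respiratory chain genes, while MEF2 and E-box proteins are known for muscle genes.

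Of the 79 tested members, 63 matched a RefSeq start by symbol. Searched on both strands, the NRF1 motif was in 20.6% of these 63 windows, in 4.26% of the 15842 windows of protein-coding genes and in 3.27% of all 27305 windows of the same length. The ETS motif was in 17.5% of member windows, 9.78% of coding and 7.23% of all windows, and the YY1 motif in 27.0%, 7.63% and 5.72%. At least 1 of the 3 was in 28 of the 63 windows, or 44.4%, against 19.3% of coding and 14.5% of all windows. Against coding windows, the E-box was in 20.6% and 17.7%, TATAAA in 9.52% and 9.63%, the MEF2 consensus in 4.76% and 2.14%, and the ERR motif TCAAGGTCA in 1.59% and 0.24%, where all windows held them in 17.7%, 3264 of 27305, 3.09% and 0.359%. Motifs can overlap one another and were chosen with these windows in view, and a match is a run of letters rather than a measured site.

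COX6A2 (chromosome 16, 31427731 to 31428428, GRCh38) had the largest change of the 79 tested members. Its level was 17.11, 11.97 and 16.89 FPKM in control replicates 1, 2 and 3 and 5.30, 6.95 and 5.57 FPKM in fatty acid replicates 1, 2 and 3. The groups were well separated, with the lowest control library still above the highest fatty acid library. The means were 15.3 ± 2.91 and 5.94 ± 0.884 FPKM (SD, n = 3 each), and the log2 fold change was -1.29 ± 0.15 (SE) with a 95% interval of -1.64 to -0.93 and a limma adjusted p of 0.00297. Behind these values were 232 reads in the control group and 126 in the fatty acid group. Scaled to depth, that is a ratio of 2.63 control to fatty acid, with an exact 95% interval of 2.1 to 3.29 that covers counting error only. An antisense gene overlaps COX6A2 by 249 bases and was at 0 FPKM in the control group and 0.0447 FPKM in the fatty acid group.

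COX6A1, the liver isoform of the same subunit, was at 34.7, 35.5 and 35.2 FPKM in control and 28.6, 31.2 and 34.0 FPKM in fatty acid libraries. These groups did not overlap either, but the log2 fold change was -0.17 ± 0.07 and did not pass (limma adjusted p = 0.144). COX6A2 therefore made up 33.0%, 25.2% and 32.4% of the summed FPKM of both isoforms in control libraries and 15.6%, 18.2% and 14.1% in fatty acid libraries. These shares depend on the gene lengths used, 541 bases for COX6A2 and 1344 for COX6A1. In control replicate 1, for example, COX6A2 had 83 reads and COX6A1 418. COX7A1, another muscle isoform, had 0 reads in every library. COX7B2, a testis isoform, had 6 reads in the control group and 1 in the fatty acid group, a depth-scaled ratio of 8.56 with an exact interval of 1.04 to 394, and COX4I2, the isoform of lung and hypoxic cells, had 0.

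**Figure D1:**
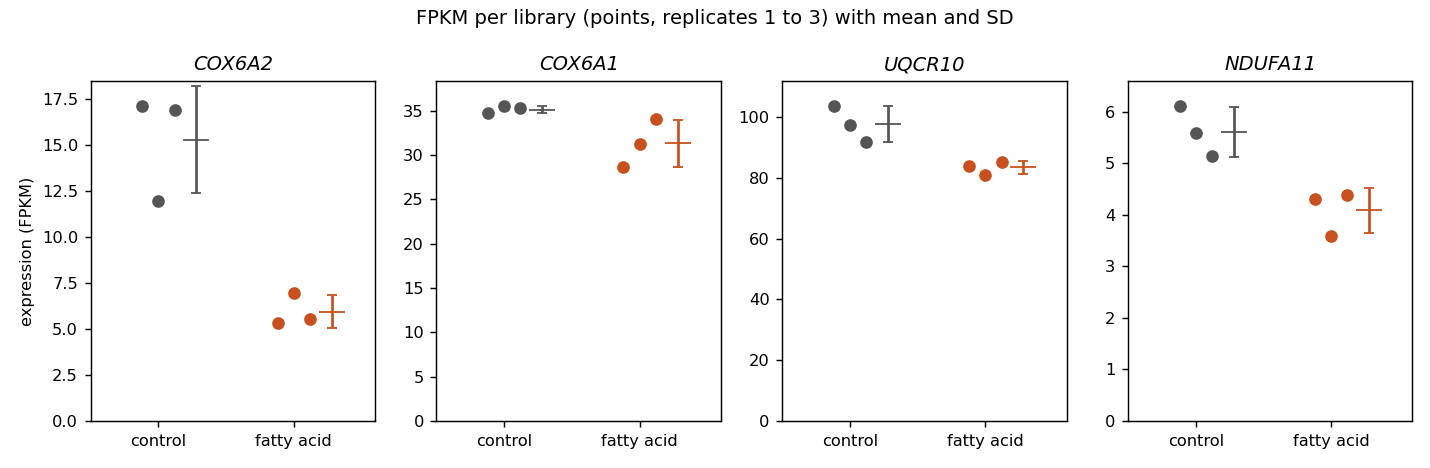
Level in FPKM (linear axis from 0) of COX6A2, COX6A1, UQCR10 and NDUFA11 in each library, with points for replicates 1 to 3 of each group and bars for mean and SD. COX6A2 falls from a mean of 15.3 to 5.94 FPKM, whereas the other 3 genes differ by a smaller proportion, though in none of the 4 panels do the groups overlap.

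Among the other nuclear complex IV genes, COX8A, a small subunit and the one of highest FPKM, was at 275, 266 and 240 FPKM in control and 218, 215 and 237 FPKM in fatty acid libraries. FPKM divides by gene length, so such ranks between genes depend on the lengths used. Its groups did not overlap, as for 13.3% of all genes in this direction, and its log2 fold change was -0.22 ± 0.07 (limma adjusted p = 0.0757). COX4I1, the regulatory subunit that binds ATP, had a log2 fold change of -0.12 ± 0.08 from a control mean of 72.4 FPKM. COX5A, COX5B, COX6B1, COX6C, COX7A2, COX7B and COX7C ranged from -0.20 to 0.08, and 0 of these 7 passed. COX7A2L, which carries a COX7 symbol but is known as a factor for joining complexes III and IV, was at 13.1, 14.0 and 14.2 FPKM in control and 15.7, 16.5 and 14.4 FPKM in fatty acid libraries, a log2 fold change of 0.17 ± 0.07 (limma adjusted p = 0.15). Of 12 complex IV genes tested, 1 was lower and 0 were higher, where 4.68% of all genes were called lower and 8.22% higher. The median of the 12 was -0.11.

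Complex III had 1 lower and 0 higher of 9, where 4.68% of all genes were called lower and 8.22% higher. UQCR10, one of the small accessory subunits, was at 104, 97.4 and 91.8 FPKM in control and 84.0, 80.9 and 85.2 FPKM in fatty acid libraries. All control libraries lay above all fatty acid libraries, with a log2 fold change of -0.22 ± 0.06 and a limma adjusted p of 0.0441. UQCRQ, the ubiquinone-binding small subunit, was at 93.0, 96.4 and 82.5 FPKM in control and 74.6, 81.3 and 80.6 FPKM in fatty acid libraries (-0.20 ± 0.07, limma adjusted p = 0.107). The large core protein UQCRC1 was at 119, 100 and 102 FPKM in control and 93.6, 96.0 and 95.2 FPKM in fatty acid libraries (-0.17 ± 0.07, limma adjusted p = 0.154). Both of these also showed separate groups, as 13.3% of all genes did in this direction. UQCRC2, the core partner of UQCRC1, was at 0.05 ± 0.06 on the log2 fold change scale. The Rieske iron-sulphur protein UQCRFS1 was at 0.01 ± 0.08, so of the 3 core members tested only UQCRC1 was below 0. Core genes outside the rule, CYC1 (-0.16 ± 0.06) and MT-CYB (-0.47 ± 0.14), were both below 0 without passing (limma adjusted p = 0.115 and 0.0714). UQCRB, at 13.7, 16.6 and 17.1 FPKM in control and 17.5, 18.4 and 19.0 FPKM in fatty acid libraries, pointed upward without passing (0.21 ± 0.09, limma adjusted p = 0.157). UQCRHL, a copy of UQCRH with few reads, had the lowest value of the complex, -0.53 ± 0.19 (limma adjusted p = 0.106), and its reads may be shared with UQCRH, which was at 0.09 ± 0.06.

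Complex I had 1 lower and 0 higher of 36, where 4.68% of all genes were called lower and 8.22% higher. Its median log2 fold change was -0.09. NDUFA11, an accessory subunit of the membrane arm, was at 6.11, 5.58 and 5.14 FPKM in control and 4.30, 3.58 and 4.38 FPKM in fatty acid libraries. The groups did not overlap, and the log2 fold change was -0.41 ± 0.10 (limma adjusted p = 0.0354). A second gene model on the same strand covers 12512 bases of NDUFA11, and what this did to its count was not tested.

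The core of complex I binds NADH and passes electrons along iron-sulphur clusters to ubiquinone. It had 0 of 6 tested genes called by limma and a median log2 fold change of -0.18. At an unadjusted limma p under 0.05 it had 2 lower and 0 higher, where 11.4% of all genes were lower and 19.1% higher. NDUFS7, which carries the last cluster before ubiquinone, was at 7.58, 5.83 and 5.63 FPKM in control and 4.59, 4.32 and 5.16 FPKM in fatty acid libraries (-0.39 ± 0.12, limma adjusted p = 0.0724). An antisense gene, AC005329.7, overlaps NDUFS7 by 3420 bases and itself fell, with means of 8.71 FPKM in control and 4.87 FPKM in fatty acid libraries (-0.78, limma adjusted p = 0.0175). The part of its reads in the NDUFS7 values was not tested. NDUFS3 was at 18.4, 14.7 and 14.0 FPKM in control and 11.9, 12.5 and 13.1 FPKM in fatty acid libraries (-0.31 ± 0.10, limma adjusted p = 0.0913). In both genes the control libraries were all above the fatty acid libraries, as in 13.3% of all genes. NDUFV1, the NADH-binding flavoprotein, was at -0.15 ± 0.10, NDUFS8 at -0.21 ± 0.11 and NDUFS1, the largest subunit, at 0.08 ± 0.06 log2 fold change. NDUFV2, a core gene below the minimum, had 32 reads in the control group and 48 in the fatty acid group, with a depth-scaled ratio of 0.951 and an exact interval of 0.588 to 1.52. A gene model on the same strand spans 31610 bases of NDUFV2, and its processed pseudogene took 82 reads where NDUFV2 took 80, and the part of these in its low level was not tested.

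The accessory subunits surround the complex I core and are needed for its assembly and stability. Of the 30 tested, 25 had a log2 fold change below 0, with a range of -0.46 to 0.22, where 42.8% of all genes were below 0. At an unadjusted limma p under 0.05 there were 8 lower and 2 higher of the 30, where 11.4% of all genes were lower and 19.1% higher. NDUFB8 was at 7.53, 7.51 and 7.19 FPKM in control and 4.90, 6.30 and 6.09 FPKM in fatty acid libraries (-0.34 ± 0.10, limma adjusted p = 0.0563). NDUFB10 was at 87.4, 77.1 and 81.5 FPKM in control and 66.1, 72.9 and 70.6 FPKM in fatty acid libraries (-0.23 ± 0.06, limma adjusted p = 0.0561). NDUFA13, also known as the cell death regulator GRIM-19, was at 5.31, 6.24 and 3.91 FPKM in control and 3.53, 3.55 and 3.59 FPKM in fatty acid libraries (-0.46 ± 0.15, limma adjusted p = 0.0807). All 3 had groups that did not overlap, as 13.3% of all genes did in this direction, yet none passed over all genes. NDUFA13 overlaps YJEFN3 by 194 bases on the same strand, and YJEFN3 fell (-0.70, limma adjusted p = 0.0308). NDUFA5, at 8.47, 8.96 and 8.54 FPKM in control and 9.62, 10.6 and 10.3 FPKM in fatty acid libraries, was the highest of the complex (0.22 ± 0.06, limma adjusted p = 0.0592). NDUFC2 followed at 0.17 ± 0.06, and overlaps by 48 bases on the opposite strand with THRSP, a lipogenic gene that fell by 2.09 on the log2 scale. NDUFS5, the complex I gene of highest FPKM at 237 ± 24.3 and 236 ± 4.6 (SD, n = 3 each), had a 95% interval of -0.18 to 0.17. NDUFA4, now regarded as a complex IV subunit but placed here by its symbol, was at -0.07 ± 0.06.

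Complex II, which links the citric acid cycle to the chain, had 0 of 4 genes called by limma and 0 at an unadjusted p under 0.05. Of all genes, 12.9% were called and 30.5% had an unadjusted limma p under 0.05. SDHA, the flavoprotein, was at 27.0, 25.4 and 24.5 FPKM in control and 24.8, 24.7 and 24.0 FPKM in fatty acid libraries. Its 95% interval was -0.19 to 0.07. SDHB, the iron-sulphur protein, was at 46.6, 44.2 and 42.4 FPKM in control and 38.6, 44.1 and 43.1 FPKM in fatty acid libraries, with an interval of -0.24 to 0.07. The groups of both genes overlapped. The membrane anchors SDHC and SDHD were at -0.01 ± 0.06 and -0.04 ± 0.06 log2 fold change. All 4 intervals lay within 1.5-fold.

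Complex V had 0 of 18 genes called by limma, against 12.9% of all genes, and a median log2 fold change of 0.00. At an unadjusted limma p under 0.05 it had 2 lower and 0 higher, where 11.4% of all genes were lower and 19.1% higher. Its catalytic F1 head is built from ATP5A1, ATP5B, ATP5C1, ATP5D and ATP5E, the older symbols of the alpha to epsilon subunits. ATP5B, the most abundant tested member of all 5 complexes, was at 347, 311 and 309 FPKM in control and 335, 342 and 325 FPKM in fatty acid libraries, an overlap with a 95% interval of -0.09 to 0.19. ATP5A1 was at 0.06 ± 0.05 and ATP5C1 at 0.07 ± 0.04 log2 fold change. ATP5D, the delta subunit of the central stalk, differed from these: it was at 53.5, 43.3 and 39.8 FPKM in control and 34.1, 35.8 and 36.6 FPKM in fatty acid libraries. Its groups were separate, as for 13.3% of all genes in this direction, and its log2 fold change was -0.34 ± 0.10 (limma adjusted p = 0.0682). The 7 genes of the peripheral stalk and membrane part ranged from -0.10 to 0.08. ATP5G1, ATP5G2 and ATP5G3, which encode an identical mature c-ring protein, made up 28.4%, 29.6% and 41.9% of their summed FPKM in the control mean and 26.8%, 30.0% and 43.1% in the fatty acid mean. ATP5G1 was at 28.8, 27.5 and 28.5 FPKM in control and 26.2, 26.2 and 26.1 FPKM in fatty acid libraries (-0.11 ± 0.05, limma adjusted p = 0.161). ATP5S and ATP5SL are matched by symbol but are not stable subunits, and they were at -0.04 ± 0.10 and -0.07 ± 0.13. The widest interval was that of ATP5EP2, a copy of ATP5E at 0.83 FPKM in the control mean, from -0.85 to 1.61.

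**Figure D2:**
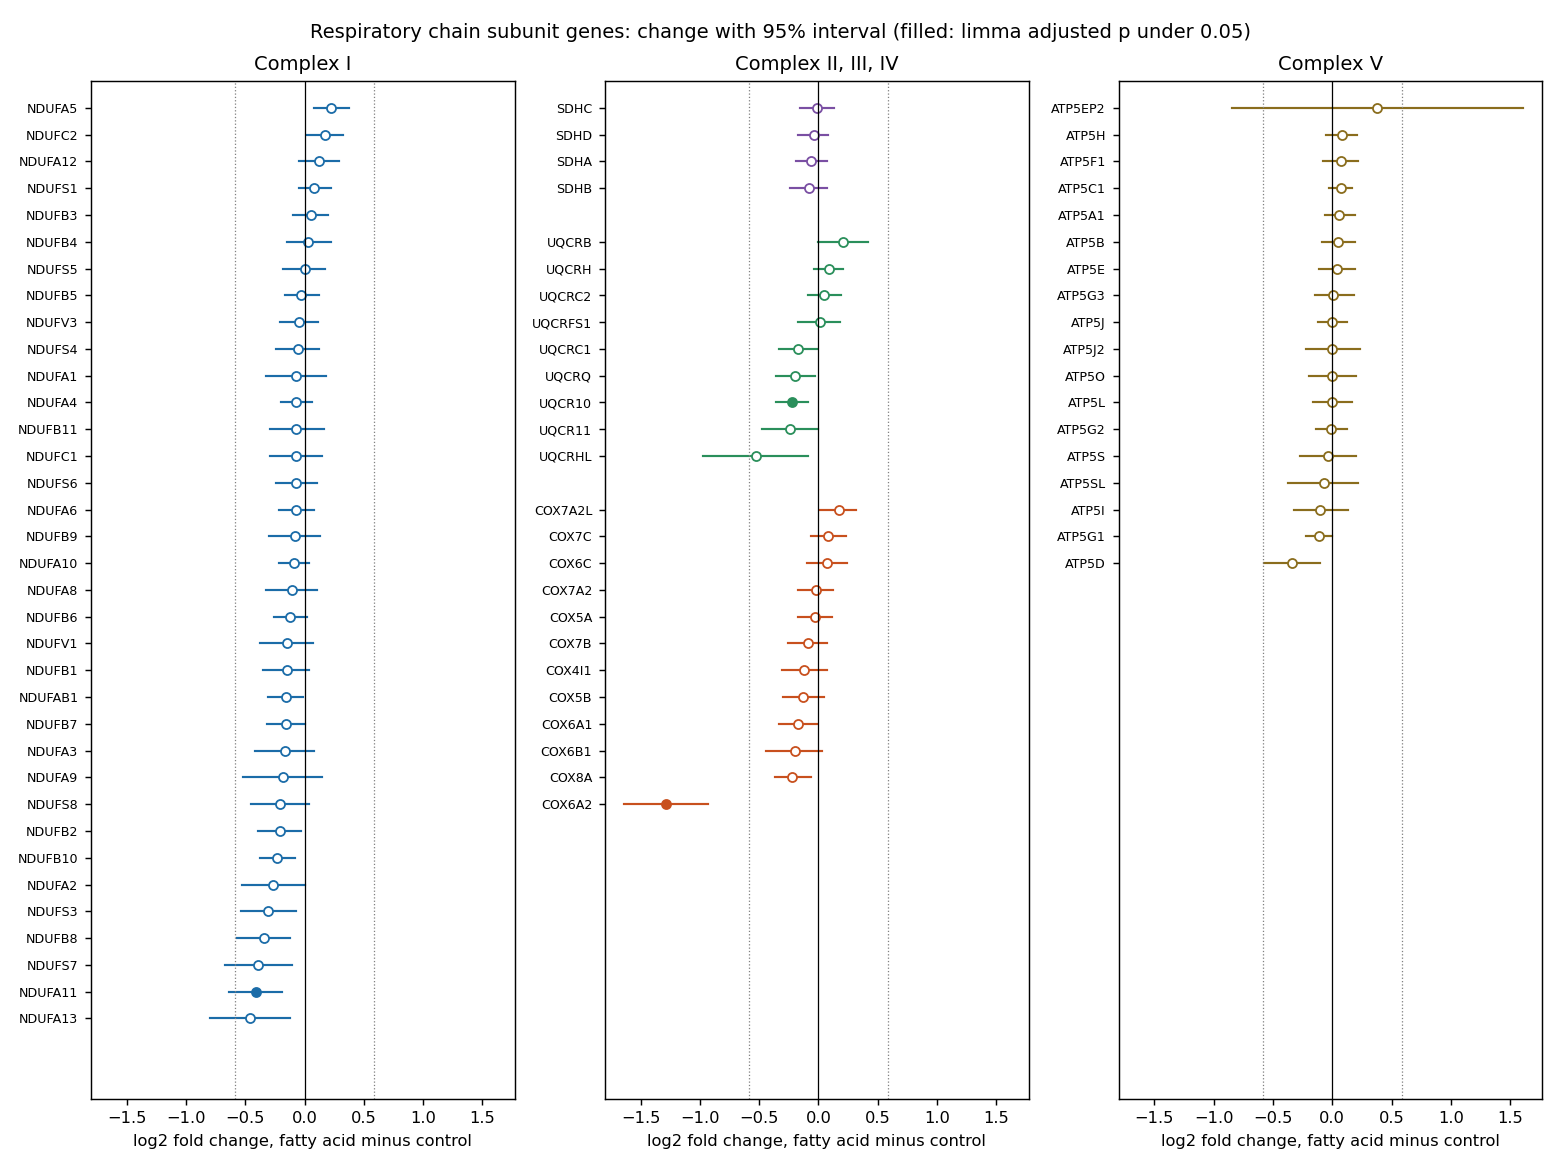
Log2 fold change, fatty acid minus control, of tested subunit genes by complex, with 95% intervals from limma, filled circles where the adjusted p was under 0.05 and dotted lines at 1.5-fold. COX6A2 is the point far to the left at -1.29, and most of the other intervals stay between the dotted lines.

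Summed levels differed by small proportions, and the groups overlapped for complexes I, II and V. For complex III the control libraries (467 to 505 FPKM) lay above the fatty acid libraries (446 to 463 FPKM). Those of complex IV did as well (947 to 997 against 856 to 927 FPKM). As a share of library reads, however, the groups overlapped for both. Complex III took 0.114% to 0.12% of control and 0.111% to 0.116% of fatty acid reads. Complex IV took 0.156% to 0.163% and 0.147% to 0.161%. Complex I genes summed to 1320 ± 29.7 FPKM in control and 1248 ± 43.1 FPKM in fatty acid libraries (SD, n = 3 each). Complex III summed to 490 ± 20.3 and 456 ± 8.7 FPKM, complex IV to 975 ± 25.9 and 902 ± 39.7 FPKM, and complex II to 117 ± 3.52 and 112 ± 4.61 FPKM. Complex V was level at 919 ± 30.1 and 925 ± 29.3 FPKM. Together the tested members took 0.892 ± 0.0246% of control reads and 0.871 ± 0.0277% of fatty acid reads. In bulk RNA, fewer cells of a type and less RNA per cell cannot be told apart.

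**Figure D3:**
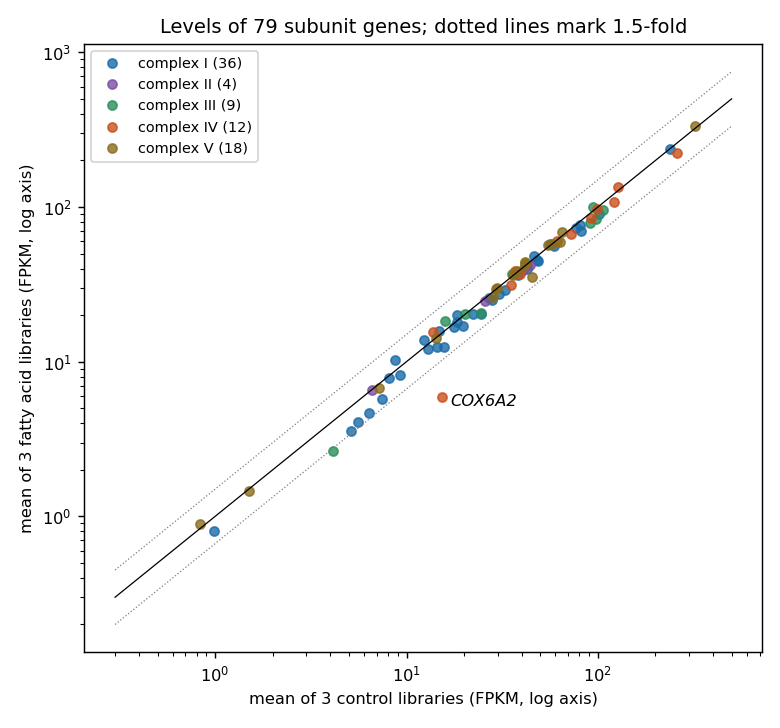
Mean level of each of the 79 tested subunit genes in the 3 control libraries (x axis) and the 3 fatty acid libraries (y axis), both in FPKM on log axes, with the line of equal level and dotted lines at 1.5-fold. The points run along the line of equal level from under 1 FPKM to ATP5B at 323 FPKM in control, and COX6A2 lies clearly below the dotted band.

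The small differences of the members leaned downward and followed the base composition of the transcripts. The log2 fold change was below 0 in 56 of 79 members, against 42.8% of all genes, and the groups did not overlap for 22 lower and 7 higher of the 79 members, 36.7% in all, where 13.3% of all genes were lower and 23.7% higher, 37.1% in all. At an unadjusted limma p under 0.05, 20 members were lower and 4 were higher (background 11.4% lower and 19.1% higher, 30.5% in all). Across the 79 members the log2 fold change had a Spearman rho of -0.70 with the GC content of the annotated transcripts, and across 14607 genes rho was -0.44. Genes share their libraries and are not independent points. In the 26 members with 52.5% to 67.6% GC, all 26 were below 0, with a median of -0.20, where 67.0% of all genes in that range were below 0 with a median of -0.09. In the 26 members with 36.0% to 45.1% GC, 9 were below 0 and the median was 0.03, where 22.0% of all genes in that range were below 0 with a median of 0.15. In the 27 members between, at 45.8% to 52.4% GC, 21 were below 0 with a median of -0.06, against 39.0% and 0.05 for all genes. The members thus had a lower median than all genes in each of the 3 ranges. The 3 called genes had 67.3% (COX6A2), 62.4% (NDUFA11) and 49.3% (UQCR10) GC.

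The libraries differed in the same property. The deviation of the members from their mean over the 6 libraries had a rho with GC of 0.70, 0.21 and 0.22 in control replicates 1, 2 and 3 and of -0.55, -0.66 and -0.34 in fatty acid replicates 1, 2 and 3. Control replicate 1 was the highest library for 32 of 79 members and fatty acid replicate 1 the lowest for 34, where the same libraries were the highest for 28.9% and the lowest for 12.1% of all genes. Without fatty acid replicate 1 the median of the members was -0.03 instead of -0.07, and 51 of 79 were below 0. With each library's dependence on GC removed, an alternative added after the data were seen, COX6A2 was at -1.06 (limma adjusted p = 0.00431) and UQCR10 kept its call (0.0147), NDUFA11 lost it (0.0857), and NDUFB5, NDUFB6, NDUFA4 and COX7B became lower. Of all genes 5.22% were then called lower and 4.75% higher. After this correction 69 of 79 members were below 0, against 56 as deposited, and the median of the members minus that of all genes was -0.11, as without it.

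**Figure D4:**
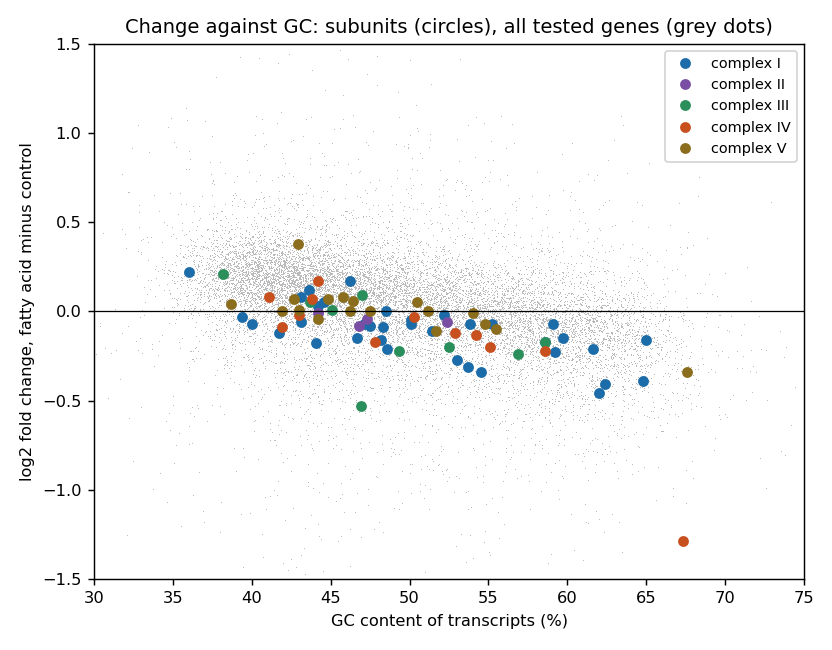
Log2 fold change, fatty acid minus control, against the GC content of the transcripts (%) for the 79 tested subunit genes (circles, coloured by complex) and all tested genes within the axis limits (grey dots). The subunit circles slope from slightly above 0 at 36.0% GC to below 0 at the GC-rich end, with COX6A2 at 67.3% GC far beneath the rest.

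COX6A2 kept its call in all 18 alternative analyses, with log2 fold changes from -1.45 to -1.06 and limma adjusted p from 0.000135 to 0.0216. UQCR10 and NDUFA11 did not: without fatty acid replicate 2, for example, their limma adjusted p was 0.162 and 0.118. Leaving out fatty acid replicate 1, fatty acid replicate 3 or control replicate 1 likewise left COX6A2 as the 1 called member. Without control replicate 2 there were 2 (NDUFB10 and COX6A2), and without control replicate 3 there were 7. Calls over all genes moved too, from 1205 higher and 686 lower to 230 and 233 without fatty acid replicate 1. They were 239 and 245 without fatty acid replicate 2, and 518 and 395 without fatty acid replicate 3. Without control replicates 1, 2 and 3 in turn they were 1109 and 505, 943 and 686, and 634 and 407. The lean was also set by the scale: on the TPM scale the all-gene median was 0.18 instead of 0.04 and the median of the members 0.07, with 4 members higher (NDUFA5, NDUFC2, UQCRB and COX7A2L) and COX6A2 the 1 lower, where 17.8% of all genes were called higher and 2.78% lower. The median of the members minus that of all genes was -0.11 as deposited and -0.11 on the TPM scale. By complex the TPM medians were 0.05, 0.08, -0.03, 0.03 and 0.14 for I to V, so the sign held in complex III only. Other scalings called more members lower: 7 after scaling by the median of ratios (background 5.58% lower, 5.31% higher) or to nuclear reads (5.7% lower, 4.84% higher), 6 after quantile normalization (5.24% lower, 5.23% higher), and 9 with voom on recovered reads (7.88% lower, 12.6% higher).

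The mitochondrially encoded subunits of the same complexes were set beside the nuclear ones. Of the 13 mRNAs, 4 were lower and 0 higher, where 4.68% of all genes were called lower and 8.22% higher. Their median log2 fold change was -0.47. MT-ND4L was at 8589, 8791 and 8092 FPKM in control and 5633, 4861 and 6357 FPKM in fatty acid libraries (-0.60 ± 0.10, limma adjusted p = 0.013). MT-ND5 (-0.49, 0.0482), MT-ND4 (-0.51, 0.0485) and MT-ATP6 (-0.49, 0.0487) passed narrowly. MT-CO1, the catalytic core of complex IV, was at 18770, 20374 and 19975 FPKM in control and 15041, 14490 and 17253 FPKM in fatty acid libraries (-0.34 ± 0.09, limma adjusted p = 0.0515), and MT-CYB of complex III was at -0.47 ± 0.14 (limma adjusted p = 0.0714). Only MT-ND6, the one gene of the opposite strand, was above 0, at 0.37 ± 0.17 (limma adjusted p = 0.19). Mitochondrial genes took 12.2% to 15.0% of control reads and 9.15% to 11.9% of fatty acid reads. The count of lower mRNAs was 0 without fatty acid replicate 1, 1 without fatty acid replicate 2, control replicate 2 or control replicate 3, and 10 without fatty acid replicate 3. After quantile normalization the count was 0 and the median -0.06. MT-ND4L and MT-ND4 overlap on the mitochondrial genome, as do MT-ATP8 and MT-ATP6, so their counts may be split.

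**Figure D5:**
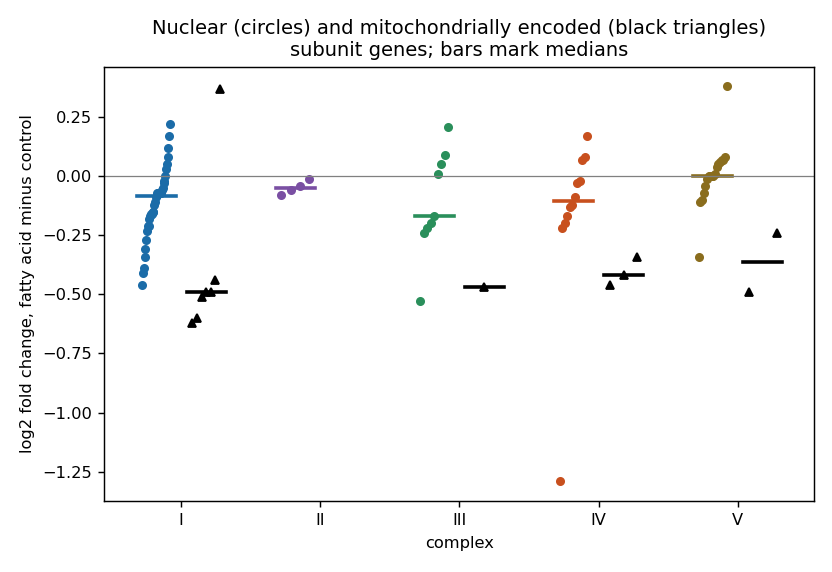
Log2 fold change, fatty acid minus control, of nuclear (coloured circles) and mitochondrially encoded (black triangles) subunit genes of complexes I to V, with bars at the medians. Nuclear medians lie between -0.17 and 0.00, while the mitochondrially encoded genes other than MT-ND6 lie between -0.62 and -0.24.

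Genes that serve the chain without being members mostly did not pass the test. Of 52 assembly factors, 2 were higher and 1 was lower, where 8.22% of all genes were called higher and 4.68% lower. ATPAF1, a chaperone of the F1 head, was at 4.83, 5.73 and 5.35 FPKM in control and 6.76, 6.75 and 6.88 FPKM in fatty acid libraries (0.33 ± 0.08, limma adjusted p = 0.0314). LRPPRC, which stabilises mitochondrial mRNAs, was at 19.9, 20.5 and 19.8 FPKM in control and 24.2, 25.0 and 22.6 FPKM in fatty acid libraries (0.25 ± 0.06, limma adjusted p = 0.0321). COA5 of complex IV assembly was lower (-0.29 ± 0.07, limma adjusted p = 0.0336). These 3 calls were each lost in 9 or more of 18 alternatives.

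A list of 9 electron carriers and dehydrogenases outside the rule held 3 higher and 1 lower. The shares of all genes were 8.22% higher and 4.68% lower. It includes cytochrome c itself (CYCS, 0.26 ± 0.08, limma adjusted p = 0.0782) and the complex III core subunit cytochrome c1 (CYC1, -0.16 ± 0.06, 0.115), neither of which passed. SQRDL, the sulphide quinone oxidoreductase, was at 10.6, 10.9 and 10.3 FPKM in control and 15.9, 13.9 and 14.7 FPKM in fatty acid libraries (0.46 ± 0.07, limma adjusted p = 0.00625). ETFA, which accepts electrons from acyl-CoA dehydrogenases, was at 28.98, 26.81 and 30.69 FPKM in control and 34.1, 36.6 and 36.5 FPKM in fatty acid libraries (0.31 ± 0.06, limma adjusted p = 0.0251). GPD2, the mitochondrial glycerol phosphate dehydrogenase, was higher (0.34 ± 0.09, limma adjusted p = 0.048), and PRODH, the proline dehydrogenase, was lower at 11.4, 8.77 and 8.91 FPKM in control and 5.67, 5.01 and 5.46 FPKM in fatty acid libraries (-0.79 ± 0.11, limma adjusted p = 0.00557). SQRDL and PRODH kept their calls in all 18 alternatives, ETFA in 10 and GPD2 in 6.

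Of 13 genes of the citric acid cycle, DLD was higher (0.23 ± 0.06, limma adjusted p = 0.0423) and 0 were lower. For this and the lists below, the shares of all genes called were 8.22% higher and 4.68% lower. SLC25A4, the muscle-type ADP/ATP carrier, was lower at 14.76, 13.83 and 13.05 FPKM in control and 10.29, 10.41 and 11.03 FPKM in fatty acid libraries (-0.38 ± 0.07, limma adjusted p = 0.0138). Of 49 large-subunit proteins of the mitochondrial ribosome, MRPL3 and MRPL32 were higher, and 0 of 28 small-subunit proteins, 0 of 12 coenzyme Q genes and 0 of 14 regulators of mitochondrial biogenesis were called by limma. At an unadjusted limma p under 0.05, 19.1% of all genes were higher and 11.4% lower. By that measure the small-subunit proteins had 3 higher and 1 lower of 28, and the large-subunit proteins 9 higher and 6 lower of 49. The coenzyme Q genes had 1 higher and 3 lower of 12, and the regulators 5 higher and 1 lower of 14. The citric acid cycle genes had 3 higher and 0 lower of 13, and the assembly factors 4 higher and 5 lower of 52. The regulators of lowest p were TFAM, which packages mitochondrial DNA and serves as a factor in its transcription (0.29 ± 0.08, limma adjusted p = 0.0547), and YY1 (0.18 ± 0.06, 0.0767). DLD, MRPL32 and MRPL3 kept their calls in 7, 5 and 14 of 18 alternatives and SLC25A4 in 15.

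Hepatocyte markers were abundant, as the label of a hepatic line has it. The 14 genes summed to 18459 to 19145 FPKM in control and 15427 to 15906 FPKM in fatty acid libraries, with 9 lower (ALB, TTR, TF, CPS1, AHSG, ASGR1, HNF4A, CYP3A4 and APOA1) and 4 higher (FGA, FGG, HP and SERPINA1). ALB alone was at 11688 to 12320 and 6826 to 7439 FPKM, and without it the sum was higher in the fatty acid group, at 6606 to 6825 and 8328 to 8601 FPKM. Biliary and progenitor markers summed to 442 to 517 and 423 to 439 FPKM, with CD24 lower of 5 tested and EPCAM at 0. Mesenchymal markers summed to 43.0 to 45.3 and 38.9 to 44.1 FPKM, with 0 of 6 tested called and THY1 at 0. Of the immune and endothelial markers KDR was lower of 2 tested, CD3E was at 0, and the sums were 48.8 to 53.9 and 37.1 to 38.9 FPKM. The part of cell composition in the subunit values was not tested.

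Copies and neighbours limit some members. Of the 79 tested, 32 overlap another expressed gene, 24 of them on the opposite strand only, and no source used here gives the strand setting of the counting. The same-strand gene models over NDUFA9 (36684 bases), NDUFA13 (12828 bases) and NDUFA7 (12612 bases) lie over genes of low level, with means of 0.984, 5.15 and 0.227 FPKM in control. Such models also lie over abundant members, among them COX8A (1924 bases, 260 FPKM), SDHD (33111 bases, 40.4 FPKM), COX6A1 (2545 bases, 35.1 FPKM), UQCR11 (8274 bases, 24.5 FPKM) and ATP5O (12528 bases, 14.3 FPKM).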

How the data were processed

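Poly-A stranded libraries of 6 HepaRG samples were made from 100 ng of RNA, per the labels' protocols. Alignment and counting tools, per the submitters' processing notes, were STAR 2.5.2 and Subread 1.5.1 with featureCounts, and the build GRCh38. The authors deposited FPKM values per gene, which are relative to gene length and to each library's assigned reads. Whole reads were recovered from the FPKM steps (100% of testable values whole, tolerance 0.02 reads beyond rounding), giving 6.33 to 11.82 M reads for control and 8.36 to 15.94 M for fatty acid libraries.

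Fatty acid was compared with control by limma 3.58.1 (R 4.3.3, intensity trend, no covariate) on log2 of the deposited FPKM plus 0.5, over all genes averaging 0.5 FPKM or more, adjusted by Benjamini-Hochberg and called under 0.05. Intervals are 95%, and those of read ratios are exact binomial. The test was tried on simulated reads. These lacked the dependence on GC seen in the libraries, so that trial cannot show how the test behaves with it. Every member could be named, though 1 is not reported here by name and is left out of the plot of changes by gene while counts include it; values per library are given for called members, those of smallest p, core subunits and isoform pairs, and in related lists for called genes or the 2 of smallest p. Overlapping and neighbouring genes outside these lists (AC005329.7, YJEFN3 and THRSP) were chosen after their values were seen. The members and lists were chosen with earlier results of these data known. Transcript GC came from GENCODE v29 and gene starts from RefSeq (GRCh38.p14), and gene coordinates are as deposited. Alternatives were other pseudocounts, minimums and scalings, no trend, a replicate block, voom on recovered reads and each library left out; the GC correction was chosen after seeing the data. Deviations of same-numbered replicates were weakly correlated over all tested genes (0.0122 to 0.0836), which cannot show whether they shared a culture or batch.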

Additional observations from a re-analysis of the deposited data

How the results depend on the processing

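The count of lower members was 3 and that of higher members 0, and both stayed so with pseudocounts of 0.1 and 1. Lower members numbered 7 after scaling by the median of ratios or to nuclear reads, 7 with a minimum of 2 FPKM, 6 after quantile normalization or GC correction, 9 with voom on recovered reads, and 1 (COX6A2) after rescaling to TPM, without the expression filter or without the intensity trend. Higher members numbered 4 after rescaling to TPM and 1 (NDUFA5) with the minimum of 2 FPKM or with voom. By complex, lower complex I genes numbered 3 under the median of ratios, nuclear reads, quantile normalization and GC correction, 4 with the minimum of 2 FPKM, 5 with voom and 0 under TPM, no filter and no trend, and higher ones 2 under TPM and 1 with the minimum of 2 FPKM or voom. Complex III had 0 lower under TPM, no filter and no trend, and 1 higher under TPM. Complex IV had 2 lower under the median of ratios, nuclear reads, GC correction and voom, and 1 higher under TPM. Complex V had 1 lower (ATP5D) under the median of ratios, nuclear reads, quantile normalization, the minimum of 2 FPKM and voom. The cause of these moves was not tested, and the filters also changed how many genes were tested.

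Leaving out each library in turn gave 1 to 7 lower members and 0 higher, with 0 to 1 lower in complex I, 0 to 3 in complex III, 1 to 2 in complex IV and 0 to 1 in complex V. Called genes of the related lists numbered 15, and 4 without the filter, 25 with the minimum of 2 FPKM, 9 after quantile normalization, 36 after TPM, 5 without the trend, 31 with voom and 2 to 14 with a library left out. The replicate number as a block left 1 lower member, 0 in complex I and 0 in complex III. All genes called went from 1205 higher and 686 lower to 817 and 657. Correlations of same-numbered deviations over all tested genes were 0.0122, 0.0836 and 0.0224, and those of differently numbered ones ran from -0.094 to 0.0731. With 3 samples per group these small values cannot show whether same-numbered samples shared a culture or batch. All genes were called 779 higher and 818 lower under the median of ratios, 2615 and 408 under TPM and 710 and 835 under nuclear reads. Without the filter these counts were 640 and 337 of 28422 tested, and with the minimum of 2 FPKM 1363 and 731 of 10426. They were 642 and 459 without the trend, 694 and 763 after GC correction, and 1842 and 1155 with voom. Lower mitochondrially encoded mRNAs numbered 4, and 0 without the filter, 1 without the trend, 2 under the median of ratios or nuclear reads, 9 with the minimum of 2 FPKM, 6 after GC correction, 10 with the block and 11 with voom. Few reads limit what can be said of the members below the minimum, since NDUFV2 had 80 reads in all and the other 6 with reads had fewer.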
